A study of Mus musculus with 8 samples.

Results

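Gene expression at 6 d after wax plucking was compared with that at 4 d in mouse dorsal skin, over the days in which plucked follicles begin to build new hair. The comparison uses 2 of the 8 arrays of the study, chosen by their titles, and does not use the shaved control as a reference. Both samples came from female C57BL/6 mice, an inbred black-coated strain, whose back hair was removed with wax while the follicles were at rest. Per the labels, the mice were 10 weeks old at 4 d and 11 weeks old at 6 d, whereas the treatment protocol puts plucking at 7 to 8 weeks, and the files do not settle which holds. The other 6 arrays are a shaved control and samples at 12 h, 1 d, 2 d, 10 d and 50 d after plucking, and they are used only to show where the 4 d and 6 d levels lie. The labels call the material adipose cells, while the design text describes fat and dermis around the follicles. Nothing says how many mice a sample holds.

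Hair follicles cycle between rest (telogen), growth (anagen) and regression (catagen), and plucking starts a new growth phase in step across the plucked area. In early growth, WNT and hedgehog signals pass between the dermal papilla, a knot of mesenchyme, and the follicle epithelium, and matrix cells divide at the base of the follicle. Their descendants first form the inner root sheath, which moulds the hair, and then the cortex and cuticle of the shaft, built from hair keratins and the keratin-associated proteins that crosslink them. In mouse skin the fat layer thickens during hair growth, and growing follicles reach down into it.

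The level of a gene is given as log2 of the processed Cy3 signal after subtraction of the array's 75th percentile, and a difference is the level at 6 d minus that at 4 d, on the same log2 scale. With 1 array a time there is no replicate, so no difference carries a test or an error between mice, and folds describe these arrays. The technical errors are a median SD of 0.080 at 4 d and 0.068 at 6 d between repeated spots of a probe, and a median SD of 0.18 between the differences given by separate probes of a gene. Of the spots, 77.4% at 4 d and 81.2% at 6 d were well above background, and all arrays lay on 1 slide. The 75th percentile of the signal was 758 at 4 d and 1082 at 6 d before scaling.

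Of 29857 genes well above background on the brighter array, 1530 (5.12%) were at least 2-fold higher at 6 d and 794 (2.66%) were lower by as much. The median difference over all of them was 0.022. Higher genes made up 65.8% of these 2324 genes, but 51.5% of a smaller number with normexp background correction, which gave 493 higher and 465 lower. That correction moved the median of all genes to -0.11. Of the higher genes, 577 were not well above background at 4 d, and of the lower genes 195 were not so at 6 d. For such genes the fold is a bound, taken against the lowest signal well above background on the dimmer array or the gene's own signal, whichever is higher, and written as at least N-fold. Dim genes leaned upwards: the median difference was 0.27 in the dimmest of 10 equal classes of genes by mean level and -0.095 in the brightest. With this trend removed by lowess, 1234 genes were higher and 944 lower by the same threshold.

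**Figure D1:**
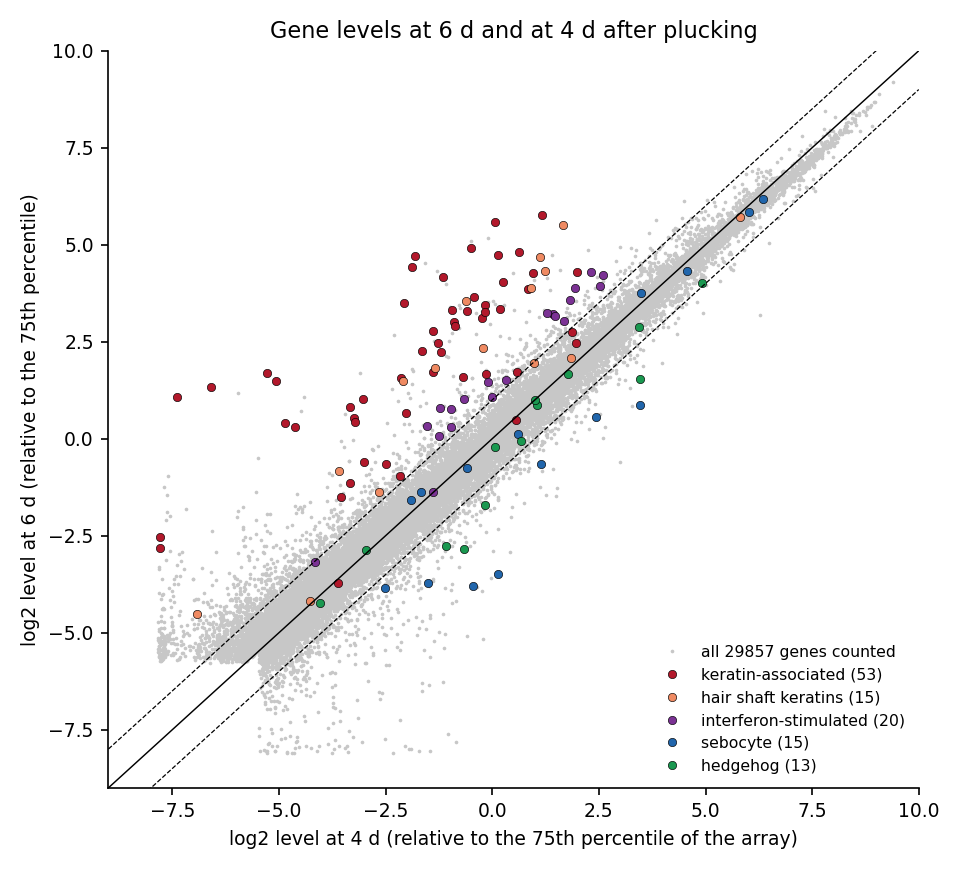
Each grey point is 1 of 29857 genes, with its log2 level at 4 d on the x axis and at 6 d on the y axis, both relative to the 75th percentile of the array; the solid line marks equal levels and the dashed lines 2-fold differences. Keratin-associated genes, hair shaft keratins and interferon-stimulated genes lie mostly above the upper dashed line, and several sebocyte and hedgehog genes lie below the lower one.

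Genes of the hair shaft were far higher at 6 d, genes of dividing cells, of hedgehog signalling, of the sebaceous gland and of the epidermis were lower, and interferon-stimulated and macrophage genes were higher. Adipocyte genes differed little. For each list below, its count of members past 2-fold is to be read against 5.12% higher and 2.66% lower over all genes, and its median against 0.022. A count of members above or below 0 is to be read against 52.6% above and 47.4% below over all genes. The samples are bulk tissue, so fewer cells of a type and less RNA per cell cannot be told apart.

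**Figure D2:**
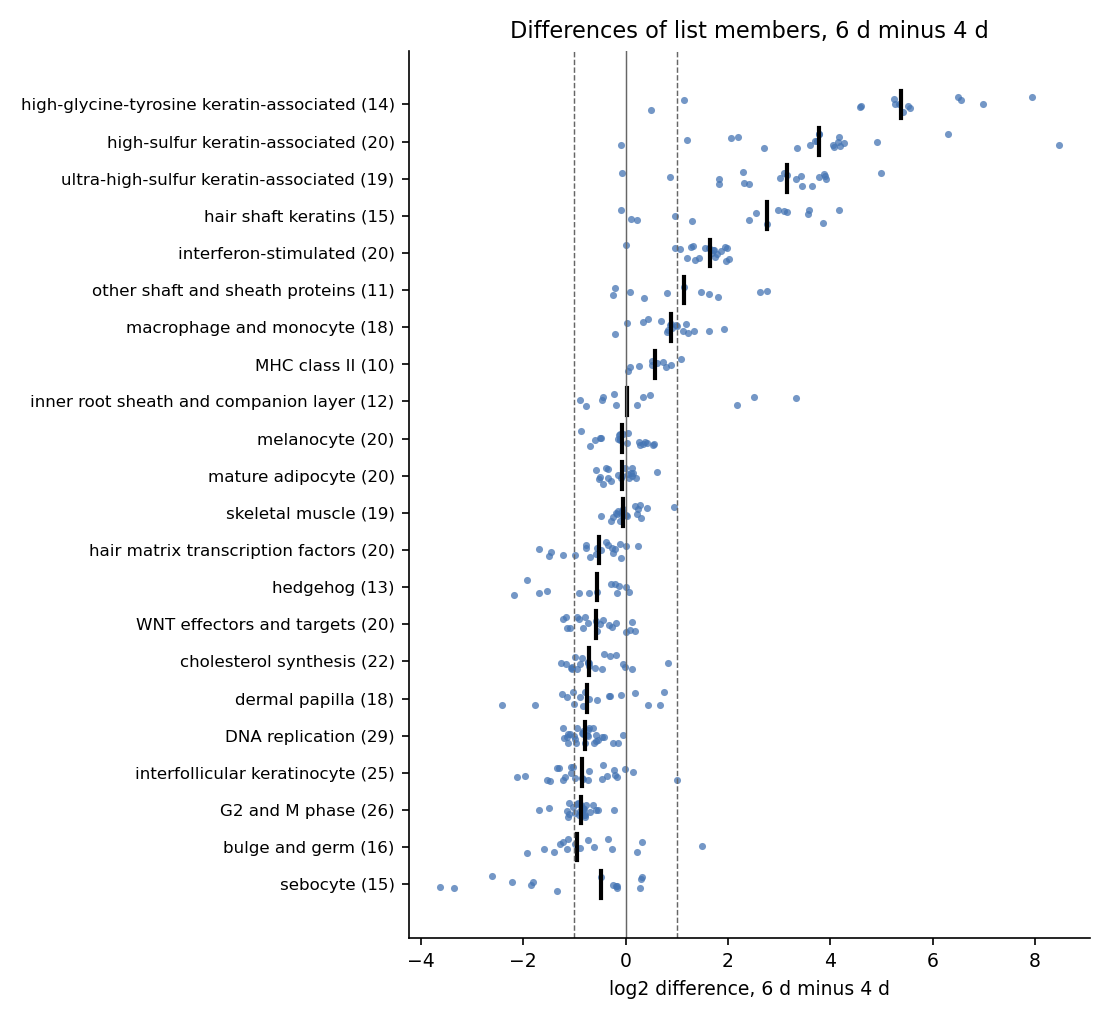
Each blue point is a gene of the list named on the left, placed by its log2 difference between 6 d and 4 d, with the number of genes counted in brackets; black bars are list medians and dashed lines mark 2-fold. The medians run from 5.38 for high-glycine-tyrosine keratin-associated genes to -0.94 for bulge and germ genes, and the mature adipocyte, melanocyte and skeletal muscle medians lie near 0.

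The labelled tissue was checked first. The fat genes Adipoq, which encodes adiponectin, Fabp4, a fatty acid carrier, and Cfd, which encodes adipsin, stood at levels of 5.79, 7.77 and 8.42 at 4 d and at 5.71, 7.49 and 7.92 at 6 d. All 20 mature adipocyte genes were well above background on both arrays, and their summed signal, as a multiple of the 75th percentile, was 1006 at 4 d and 843 at 6 d. Other tissues were present too. Skeletal muscle genes summed to 3283 and 3000, with 19 of 19 well above background on both arrays, so the samples were not fat alone. Hair shaft keratins summed to 73.9 at 4 d and 191 at 6 d, inner root sheath and companion layer genes to 619 and 627, interfollicular keratinocyte genes to 99.99 and 60.15, sebocyte genes to 205 and 170, and melanocyte genes to 126 and 111. The amount of follicle, epidermis, muscle and fat in each sample was not measured, and its part in the differences below was not tested.

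Hair shaft keratins are the filament proteins of the cortex and cuticle. Of the 15 counted, 11 were at least 2-fold higher at 6 d and none was at least 2-fold lower, with a median difference of 2.77. Krt34 stood at -0.62 at 4 d and 3.55 at 6 d, an 18.1-fold difference, and between -3.76 and -0.49 on the shaved, 12 h, 1 d and 2 d arrays. Krt33a went with it, at 1.65 and 5.51, a 14.5-fold difference. Krt86 stood at 1.12 and 4.68 and Krt31 at 1.23 and 4.32, which are differences of 3.56 and 3.09. At 4 d these keratins were thus above their levels at 2 d or close to them, and their 6 d levels were well above both. The type II keratin printed as Krt83 on the array, now named Krt87, differed by 3.58, the cuticle keratin Krt82 by 3.16, Krt33b by 2.98, Krt40 by 2.77 and Krt81 by 2.55. Krt39, which at 4 d was not well above background, was at least 2.04-fold higher, and Krt32, another cuticle keratin, was 2.44-fold higher.

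A few shaft keratins stayed within 2-fold. Krt35, a keratin that starts early in the hair matrix and lower cortex, stood at 5.82 at 4 d and 5.72 at 6 d, against -0.21 at 2 d. Its large difference therefore lay between 2 d and 4 d, and that between 4 d and 6 d was -0.10. Krt85, another keratin of the lower shaft, stood at 1.85 and 2.08, with a range of 1.39 to 2.08 over all 8 arrays, and its 3 probes gave differences from -0.30 to 0.82. The probe used for Krt85 had no genome position in the array design, so its target could not be checked by position. Krt84, known mainly from tongue and nail, stood at -4.28 and -4.18, and Krt36 at 0.99 and 1.95. Near-identical keratin genes can share hybridisation, so values of single type I or type II hair keratins are not fully separate.

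**Figure D3:**
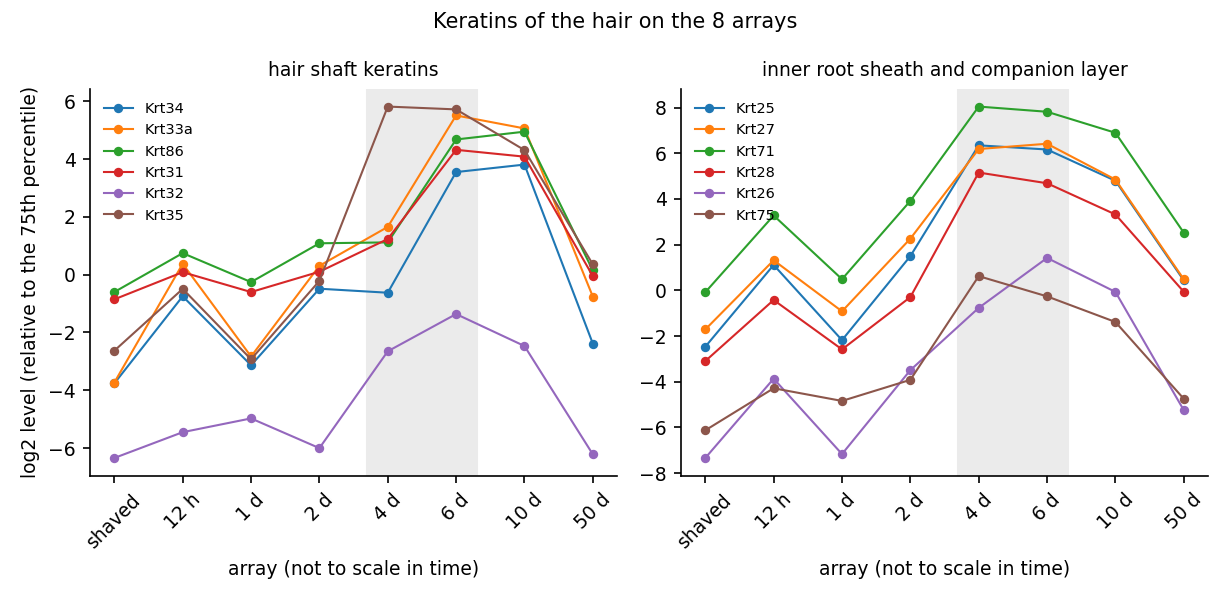
Log2 levels of single keratins, relative to the 75th percentile of the array, are drawn over the 8 arrays in order of sampling, with 1 array a point and the 4 d and 6 d arrays shaded. Krt34, Krt33a, Krt86 and Krt31 are far higher at 6 d than at 4 d, whereas Krt35 and the sheath keratins Krt25, Krt27, Krt71 and Krt28 reach their high levels by 4 d.

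The inner root sheath and companion layer list showed no such common shift. Its median over 12 genes was 0.024, with 6 above 0 and 6 below, 3 at least 2-fold higher and none at least 2-fold lower, and the median turned to -0.0043 with median centring and to -0.084 with normexp. The mean over the members was 0.51. The sheath keratins Krt25, Krt27, Krt28 and Krt71 differed by -0.18, 0.23, -0.47 and -0.23, and each had been at most 3.92 at 2 d and at least 5.16 at 4 d. Tchh, which encodes trichohyalin, the protein that hardens the sheath, stood at 6.77 and 7.24. Krt75, a keratin of the companion layer, was lower at 6 d, at 0.62 and -0.26. The 3 genes past 2-fold were Tchhl1, a trichohyalin relative, at 1.39 and 4.73, the keratin Krt26 at -0.77 and 1.42, and the sheath keratin printed as Krt72-ps, now Krt72, at -0.91 and 1.60. Gata3, a transcription factor of the sheath, stayed within 2-fold, at 4.22 and 3.44.

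The 3 keratin-associated lists had the highest medians of the 50 lists. Of 53 counted, 49 were at least 2-fold higher at 6 d, 39 at least 8-fold, and the median difference was 3.78. By family, 19 of 20 high-sulfur genes were at least 2-fold higher, with a median of 3.78, 17 of 19 ultra-high-sulfur genes, with a median of 3.16, and 13 of 14 high-glycine-tyrosine genes, with a median of 5.38. With dim values at their bounds the median of the ultra-high-sulfur genes was 3.10. Among the high-glycine-tyrosine genes, Krtap6-2 stood at -5.07 and 1.49, a 94.4-fold difference, and Krtap22-2 at -1.16 and 4.18, a 40.6-fold difference. Krtap6-1 stood at -0.50 and 4.92, and its second probe gave a larger difference. Several of these genes carry older names on the array. Krtap16-1, now Krtap19-2, stood at -1.80 and 4.70, Krtap16-7, now Krtap21-1, at -2.06 and 3.49, and Krtap16-8, now Krtap6-5, at 0.06 and 5.58. Krtap16-5, now Krtap19-3, was at least 117-fold higher, and AY026312, now Krtap19-9b, at least 126-fold.

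Among high-sulfur genes, Krtap14 was at least 98.5-fold higher, Krtap15 30.1-fold, Krtap1-5 19.2-fold and Krtap11-1 18.1-fold, the last at 0.63 and 4.81. The gene printed as Krtap16-10, now Krtap16-3, was 78.8-fold higher. It was placed in this family by its symbol, as were all members of the 3 families, and protein sequences were not checked. Among ultra-high-sulfur genes, Krtap4-1 was 15.1-fold higher, Krtap9-3 14.7-fold and Krtap12-1 12.4-fold. The 4 keratin-associated genes short of 2-fold were named after their values were seen: Krtap13 at -0.097, Krtap5-5 at -0.075, Krtap16-4 (now Krtap19-4) at 0.50 and Krtap10-10 at 0.87. Krtap13 and Krtap5-5 ranged from -3.74 to -3.23 and from 0.48 to 0.99 over the 8 arrays. The median level of the high-glycine-tyrosine family was 0.72 at 2 d. It was -1.48 at 4 d, below that, then 2.98 at 6 d, and it reached 4.30 at 10 d. The families share sequence within a cluster, and probes of one gene may also bind a neighbour's transcript. By the probes' positions, 22 of the 53 lay on chromosome 16, with a median difference of 5.25, 21 on chromosome 11, with 3.60, 5 on chromosome 7, with 1.83, 3 on chromosome 10, with 2.29, and 2 on chromosome 1, with 4.06.

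Promoters of some of these genes are shown with short sequence motifs marked, whose part in the differences was not tested. Each is the run of 250 bases before the RefSeq start site on the GRCm38.p6 build, 5′ to 3′ on the gene's strand: Krt34 at chr11:100041555-100041804, Krtap11-1 at chr16:89571184-89571433 and Krtap22-2 at chr16:89010760-89011009, all on the minus strand. Capitals mark TATAAA and, in Krt34 and Krtap11-1, CTTTGAAG, a form of the site bound by LEF1, the nuclear effector of WNT signalling.
Krt34: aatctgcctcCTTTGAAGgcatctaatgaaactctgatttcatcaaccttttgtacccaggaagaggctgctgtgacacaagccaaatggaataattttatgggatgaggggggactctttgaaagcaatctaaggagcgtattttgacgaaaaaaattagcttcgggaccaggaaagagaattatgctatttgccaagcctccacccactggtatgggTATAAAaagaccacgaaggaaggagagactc
Krtap11-1: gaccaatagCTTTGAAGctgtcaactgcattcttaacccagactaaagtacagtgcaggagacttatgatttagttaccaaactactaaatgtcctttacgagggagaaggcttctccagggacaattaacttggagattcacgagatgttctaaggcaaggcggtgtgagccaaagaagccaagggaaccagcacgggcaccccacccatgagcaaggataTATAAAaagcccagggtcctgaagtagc
Krtap22-2: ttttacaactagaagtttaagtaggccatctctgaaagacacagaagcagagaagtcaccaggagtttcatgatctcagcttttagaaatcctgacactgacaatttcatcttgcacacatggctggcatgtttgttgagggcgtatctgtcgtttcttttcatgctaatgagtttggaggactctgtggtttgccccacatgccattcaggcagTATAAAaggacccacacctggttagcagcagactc
In these runs TATAAA begins 31 bases before the start site in Krt34, 28 in Krtap11-1 and 35 in Krtap22-2, and CTTTGAAG begins 240 bases before it in Krt34 and 241 in Krtap11-1. Searched on both strands of all 32851 promoter runs of this length, TATAAA was present in 12.4% and CTTTGAAG in 1.42%. TATAAA was present in 6 of 9 hair shaft keratin promoters, 15 of 18 high-sulfur, 14 of 16 ultra-high-sulfur, 9 of 13 high-glycine-tyrosine and 7 of 11 inner root sheath promoters. CTTTGAAG was present in 5 of 9 hair shaft keratin and 5 of 18 high-sulfur promoters, 1 of 13 high-glycine-tyrosine promoters, and 0 of 16 ultra-high-sulfur and 0 of 11 inner root sheath promoters. The table held promoters for 9 of 15 hair shaft keratins and, by family, 18 of 20 high-sulfur, 16 of 19 ultra-high-sulfur and 13 of 14 high-glycine-tyrosine genes. A match describes the letters in this window only. The motifs overlapped in none of the printed runs.

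Other shaft and sheath proteins had a median difference of 1.14, or 0.95 with a dim value at its bound, with 6 of 11 at least 2-fold higher and none at least 2-fold lower. Psors1c2 stood at 1.59 and 4.35 and Vsig8, an adhesion protein of hair cells, at 2.25 and 4.87. S100a3, a calcium-binding protein of the hair cuticle, stood at 3.84 and 5.64, and Crym, a thyroid hormone binding protein, at 2.41 and 3.88. Dsg4, the desmosomal cadherin of the hair shaft, stood at -2.12 and -1.31. It was the 1 desmosome gene above 0. The other 13 of that list were below 0 and 3 were at least 2-fold lower, with a list median of -0.76: Dsg3, the basal cadherin, at -1.27 (1 of its 3 probes gave 0.29), Dsc2 at -1.03 and Perp, which stood at 6.69 and 5.69. Of 9 transglutaminase and deiminase genes, whose enzymes crosslink and modify hair and epidermal proteins, 1 was at least 2-fold lower, Tgm5 at -1.24. Padi3, the deiminase that acts on trichohyalin, stood at 2.93 and 3.28.

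Transcription factors of the hair matrix were lower or level at 6 d. Of 20 counted, 4 were at least 2-fold lower and none at least 2-fold higher, 18 were below 0, and the median was -0.52. The homeobox gene Dlx2 stood at 0.84 and -0.61, the zinc finger gene Bcl11b at -0.18 and -1.67, and Vdr, which encodes the vitamin D receptor needed for hair cycling, at 3.32 and 2.08. Dlx1 differed by -1.69, but its second probe gave 0.94. Other factors of shaft-forming cells differed less: Hoxc13 stood at 2.03 and 1.79, Foxn1, the nude gene, at -0.59 and -0.71, and Msx2 at 2.02 and 1.65. Lef1 stood at 2.66 and 2.08. Hoxc13 and Foxn1 were at -2.22 and -4.43 at 2 d, so they were high on both arrays compared here.

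Bulge and germ genes, which mark follicle stem and progenitor cells, gave a median of -0.94. At least 2-fold lower were 7 of 16, and 1 was higher by as much. Lhx2, a homeobox gene of the hair germ, stood at 3.12 and 1.52, Tbx1 at 3.36 and 1.97, Lgr5, a receptor for R-spondins, at 1.62 and 0.39, Cdh3, which encodes P-cadherin, at 0.98 and -0.16, and Sox9 at 0.62 and -0.51. All 5 had been lower at 2 d than at 4 d. Fgf18, a growth factor of resting follicles, was the exception, at 0.24 and 1.73. Of 18 dermal papilla genes, 6 were at least 2-fold lower and none was higher by as much, around a median of -0.76. Corin, a protease of the papilla, stood at -1.69 and -4.11, a 5.36-fold difference, and lay between -5.24 and -4.02 on the 6 arrays other than these 2. Inhba, an activin subunit, stood at -0.06 and -1.83, the R-spondin gene Rspo2 at -1.96 and -3.11, and Vcan, which encodes versican, at 1.91 and 0.89. Fgf7 and Fgf10, growth factors of the papilla, stood at 0.62 and 1.06 and at -0.91 and -0.23.

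Genes of dividing cells were lower at 6 d throughout. All 26 genes of the G2 and M phases were below 0, against 47.4% of all genes, with a median of -0.86 and 7 at least 2-fold lower. All 29 DNA replication genes counted were below 0 as well, with a median of -0.79 and 7 at least 2-fold lower. Kif11, a spindle motor, stood at 0.12 and -1.56, Top2a, a topoisomerase, at 0.87 and -0.28, Mki67, the proliferation marker Ki-67, at 4.00 and 2.88, and Ccnb1, the mitotic cyclin B1, at 1.65 and 0.55. Among replication genes Uhrf1 stood at 2.90 and 1.78, Rrm2, a ribonucleotide reductase subunit, at 2.68 and 1.57, and Mcm5, a helicase subunit, at 1.88 and 0.87. For all 26 and all 29 of these genes the 4 d level was the highest of the 8 arrays, against 15.1% of all genes. The median level of G2 and M genes at 6 d, 0.049, still lay far above the -2.01 of 2 d and the -1.86 of 10 d, and below the 0.97 of 4 d. For DNA replication genes it was 0.87 at 6 d, against 1.77 at 4 d and -0.65 at 2 d.

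The promoter of Ccnb2, which encodes cyclin B2 and stood at 2.48 at 4 d and 1.64 at 6 d, is shown for the repeated CCAAT boxes known from mitotic genes. It is the run before the start site at chr9:70421555-70421804 on the minus strand of GRCm38.p6, with CCAAT in capitals.
Ccnb2: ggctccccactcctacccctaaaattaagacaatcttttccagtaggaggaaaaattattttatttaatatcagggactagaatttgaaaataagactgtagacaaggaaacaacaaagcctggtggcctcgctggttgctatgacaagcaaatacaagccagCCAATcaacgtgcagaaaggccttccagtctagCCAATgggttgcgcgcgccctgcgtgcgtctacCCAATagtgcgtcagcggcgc
The 3 copies begin 87, 54 and 21 bases before the start site. CCAAT was present on either strand in 19 of 23 promoters of G2 and M genes and 17 of 29 of DNA replication genes, against 33.8% of all promoters.

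In the hedgehog list, the ligand, its receptor and its target Gli1 were lower at 6 d, and 11 of 13 genes were below 0. Of 13 counted, 4 were at least 2-fold lower, none at least 2-fold higher, and the median was -0.56, or -0.29 with the probes of a gene averaged. Shh, the ligand made by the follicle epithelium, stood at -0.65 and -2.84, a 4.54-fold difference, and was well above background on only 2 of the 8 arrays, those at 4 d and 6 d. Its receptor and target Ptch1 stood at -0.18 and -1.72, the transcription factor Gli2 at -1.08 and -2.77, and Gli1, the best known target, at 3.47 and 1.53, with a difference of -0.53 by its second probe. Hhip, a further target that binds the ligand, stood at 0.68 and -0.05, the signal transducer Smo at 3.45 and 2.89, and Gli3 at 1.01 on both arrays. At 10 d Gli1 was 0.39 and Ptch1 -2.85, below both arrays compared here. The co-receptors Boc, Gas1 and Cdon differed by -0.28, -0.17 and -0.12.

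**Figure D4:**
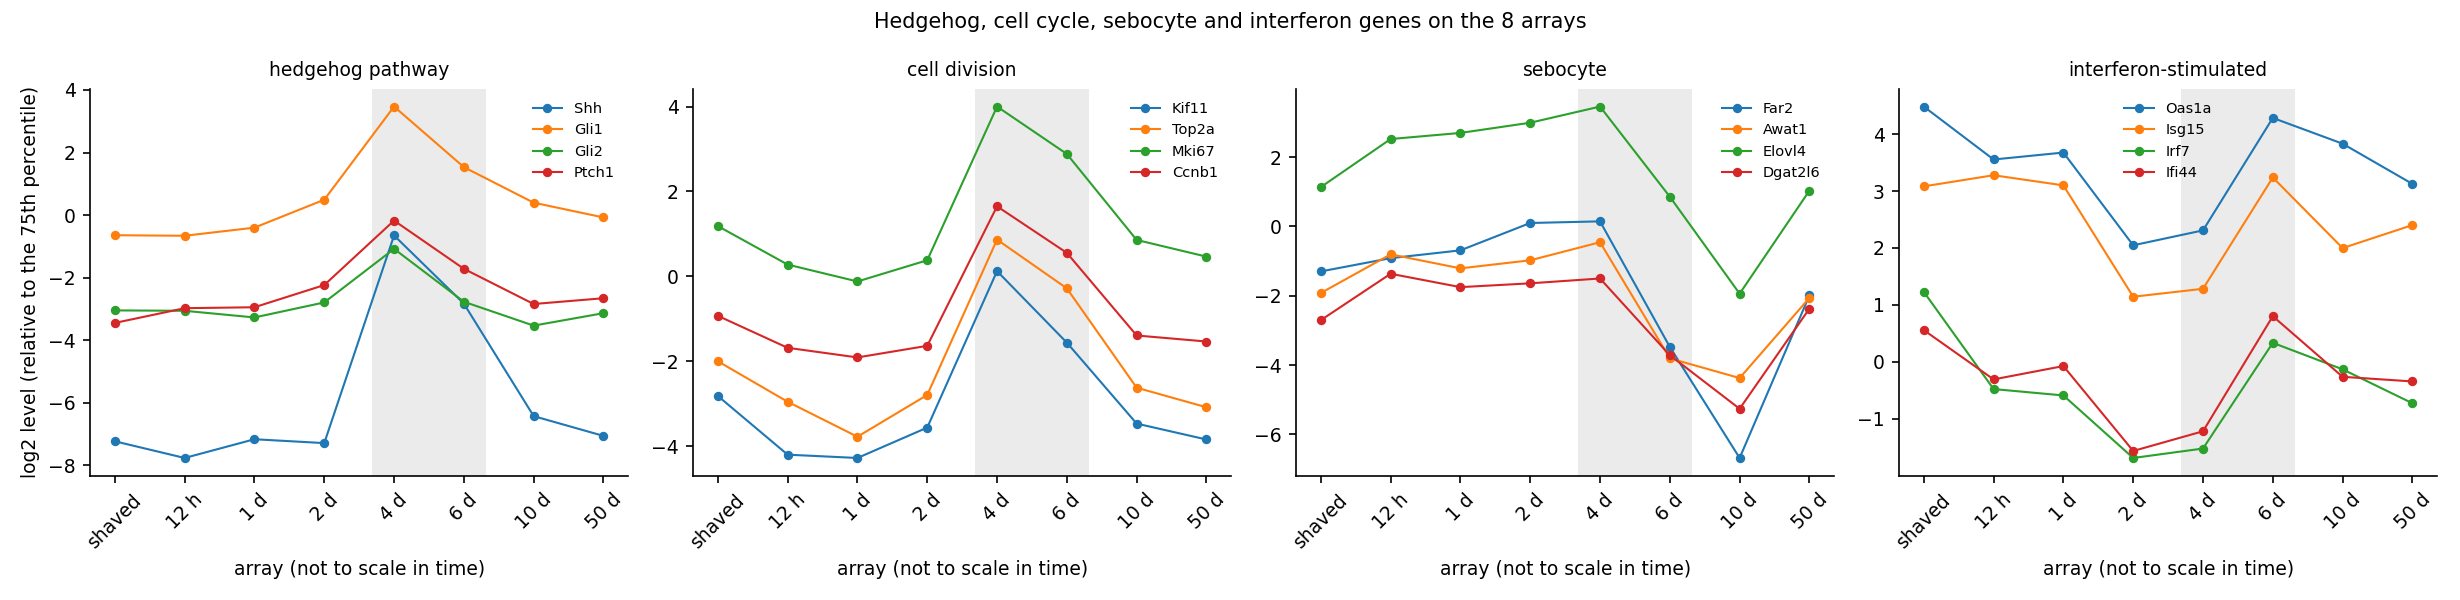
Log2 levels of genes of 4 lists, relative to the 75th percentile of the array, are drawn over the 8 arrays in order of sampling, 1 array a point, with 4 d and 6 d shaded. Shh, Gli1, Kif11 and Mki67 have their highest level at 4 d, the sebocyte genes are lower at 6 d than at 4 d, and Oas1a, Isg15, Irf7 and Ifi44 are low at 2 d and 4 d and higher at 6 d.

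WNT genes were divided by role. Of 13 ligands, 1 was at least 2-fold higher, Wnt2 at -2.70 and -1.29, and the median was -0.22. The ligands of the hair placode and matrix, Wnt10a and Wnt10b, stood at 1.38 and 1.04 and at -0.72 and -0.91. Of 20 effectors and targets 4 were at least 2-fold lower and none at least 2-fold higher, with a median of -0.57: besides Lgr5 and Rspo2 these were Rspo1, at 1.60 and 0.52, and Lgr6 at -1.17, whose second probe gave 0.36. The target Axin2 differed by -0.51, and Ctnnb1, which encodes beta-catenin, stood at 4.18 and 3.86. Among 12 inhibitors, 3 were at least 2-fold higher and 1 was lower by as much. Sfrp2, a secreted WNT binder of fibroblasts, stood at 2.18 and 3.72 and Sfrp4 at 2.81 and 3.84, whereas Wif1 stood at 1.96 and 0.99. Dkk1, a secreted inhibitor, was at least 6.97-fold lower, and Dkk4 at least 1.81-fold higher once its dim 4 d value was raised to the bound. The inhibitor median was -0.063, with 6 above 0 and 6 below.

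BMP, FGF and Notch genes mostly stayed within 2-fold. Of 24 BMP genes 1 was past it, the antagonist Grem1 at -3.18 and -5.07. The antagonist Nog, which encodes noggin, stood at -2.01 and -1.11, and the ligand Bmp4 at 2.55 and 1.99. Of 17 FGF genes, 2 were at least 2-fold higher, Fgf18 (given above) and Fgf5, the factor that ends hair growth, at -3.55 and -2.27. Fgf5 was at most -6.02 on the shaved, 12 h, 1 d and 2 d arrays and stood at -3.96 at 10 d. The receptor gene Fgfr3 was lower, at 2.76 and 1.58, although 1 of its 3 probes gave 0.63. Of 15 Notch genes 12 were below 0, with a median of -0.25, and 1 was past 2-fold, the effector Hey2 at -3.29 and -5.04.

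Epidermal genes were lower. Of 25 interfollicular keratinocyte genes 11 were at least 2-fold lower and 1 was higher by as much, with a median of -0.85. Krt1, the keratin of the layers above the basal one, stood at 0.55 and -1.43, Flg, which encodes filaggrin, at 0.79 and -0.44, Casp14, a protease of the cornified layer, at 0.04 and -1.43, and the protease Klk7 at 1.40 and 0.22. Rptn, which encodes repetin, was at least 4.36-fold lower. The gene that was higher, Cnfn, was named after its value was seen and stood at 1.82 and 2.83. Wound keratinocyte genes differed both ways, with a median of -0.16. Of the 15 counted, 2 were at least 2-fold lower, 1 was higher by as much and 12 stayed within 2-fold. The 2 lower ones were the stress keratins Krt16, at 1.17 and -0.13, and Krt17, at 5.63 and 4.36.

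Of 15 sebocyte genes, 7 were at least 2-fold lower, none at least 2-fold higher, and the median of the list was -0.47. The 7 included the wax and sebum enzymes Awat1, at -0.46 and -3.81, Awat2 at -2.51 and -3.86, Dgat2l6 at -1.50 and -3.72, and Elovl4, which makes very long fatty acids, at 3.46 and 0.86. Far2, a fatty alcohol enzyme, stood at 0.15 and -3.48, a 12.3-fold difference, but its second probe gave 0.45 in the other direction. Cidea and the acyl-CoA enzyme gene Acsbg1 differed by -1.86 and -1.80, although the second probe of Acsbg1 gave -0.042. Among the members within 2-fold, Scd1, a desaturase, stood at 6.34 and 6.18, and Fabp5 and Plin2 differed by -0.18 and 0.28. Of 22 genes of cholesterol synthesis, 5 were at least 2-fold lower, none was higher by as much, and the median was -0.72. Sqle, which encodes squalene epoxidase, stood at 2.82 and 1.77. For 16 of the 22 the 4 d level was the highest of the 8 arrays, against 15.1% of all genes.

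Interferon-stimulated genes were higher almost throughout. Of 20 counted, 18 were at least 2-fold higher at 6 d and 20 were above 0, with a median of 1.66. Oas1a, an antiviral enzyme, stood at 2.31 and 4.28, Isg15, a ubiquitin-like protein, at 1.28 and 3.24, Irf7, a transcription factor of the interferon response, at -1.52 and 0.33, and Ifi44 at -1.22 and 0.80. The chemokine gene Cxcl10 stayed within 2-fold, at -1.39 and -1.38. The median level of the list was 0.17 at 4 d, the lowest of the 8 arrays, and 1.49 at 6 d. It was 1.66 on the shaved array, so the 6 d median lay within the range of the other times. Of the 20 genes, 7 had their highest level at 6 d, against 5.42% of all genes. The probe of Isg15 lies on chromosome 4, 155573649 to 155573708 in mm9.

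Promoters of Isg15, at chr4:156200819-156201068 on the minus strand, and Ifit3, at chr19:34583279-34583528 on the plus strand of GRCm38.p6, are shown for the interferon-stimulated response element. Ifit3, which encodes an antiviral protein, stood at 1.42 and 3.20. Capitals mark GAAA, any 2 bases and GAAA again, or the reverse complement, and in Isg15 several overlapping copies merge into 1 run.
Isg15: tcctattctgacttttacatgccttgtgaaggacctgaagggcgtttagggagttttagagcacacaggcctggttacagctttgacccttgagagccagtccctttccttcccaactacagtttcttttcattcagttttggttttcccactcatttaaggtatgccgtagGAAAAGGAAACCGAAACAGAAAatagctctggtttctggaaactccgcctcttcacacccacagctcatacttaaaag
Ifit3: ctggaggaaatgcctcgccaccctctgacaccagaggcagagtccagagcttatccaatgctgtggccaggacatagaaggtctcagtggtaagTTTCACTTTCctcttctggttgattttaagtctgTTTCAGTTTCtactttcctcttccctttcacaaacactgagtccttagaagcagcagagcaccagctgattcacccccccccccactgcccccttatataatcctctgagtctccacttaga
The copies in Isg15 begin 78, 72 and 66 bases before the start site, and those in Ifit3 begin 156 and 122 bases before it. On either strand the motif was present in 8 of 15 promoters of interferon-stimulated genes, against 2.98% of all promoters and 0 of 9 hair shaft keratin promoters. The 15 promoters belong to 14 genes.

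Macrophage and monocyte genes were higher as well. Of 18, 7 were at least 2-fold higher and none at least 2-fold lower, 17 were above 0, and the median was 0.89. The median level of the list was 2.49 at 4 d, as at 2 d, the lowest of the 8 arrays, and 3.47 at 6 d. It was 4.16 on the shaved array, so the 6 d median lay within the range of the other times. Siglec1, a macrophage lectin that interferon induces, stood at -0.15 and 1.77, with 0.71 by its second probe, and the Fc receptor gene Fcgr1 at -1.61 and 0.02. Emr1, now named Adgre1, which encodes F4/80, stood at 2.15 and 3.48, Lyz2, a lysozyme, at 3.00 and 4.12, and Cd68 at 3.98 and 4.98. The summed signal of the list was 191 at 4 d and 322 at 6 d, and that of interferon-stimulated genes 41.7 and 133. All 10 MHC class II genes were above 0, with a median of 0.57 and H2-DMa past 2-fold at 0.89 and 1.97. Their median level was 1.47 at 4 d, also the lowest of the 8 arrays, 2.45 at 6 d and 3.25 on the shaved array. Lymphoid lists lay closer to 0, at medians of -0.040 for T and NK cells and 0.33 for B cells. Of 17 neutrophil genes, 4 were at least 2-fold lower and 1 was higher by as much, around a median of 0.0079. The alarmin S100a8 stood at 0.77 and -0.58. Ngp and Mmp8, which are granule genes, were at least 16.5-fold and at least 6.17-fold lower. Of the 8 arrays, Ngp was well above background only at 4 d.

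Fat genes were nearly level. None of 20 mature adipocyte genes was 2-fold apart, and the median was -0.076, or 0.029 with the level trend removed. Lep, which encodes leptin, stood at -1.32 and -0.70, Adig, which encodes adipogenin, at 3.55 and 2.97, and the lipid droplet gene Plin1 at 2.93 and 2.59. None of 21 genes of fatty acid and triglyceride synthesis and none of 18 of lipolysis and oxidation was past 2-fold, at medians of -0.16 and -0.020. Of 10 brown fat genes, 7 stayed within 2-fold, 1 was at least 2-fold higher and 2 were lower by as much, with a median of 0.24. The higher one, Ucp1, the uncoupling protein, was not well above background at 4 d and was at least 3.41-fold higher at 6 d. At 6 d Ucp1 stood at -3.77, far below its 5.08 at 50 d. The 2 lower ones were Cidea, given above, and Dio2, a thyroid hormone deiodinase, at -0.90 and -2.66. None of 14 adipocyte precursor genes was past 2-fold, and their median was 0.23. Cebpd, an early adipogenic factor, stood at 4.36 and 5.23 and Klf5 at 1.45 and 0.46. Mitochondrial and glycolysis genes had medians of 0.029 and -0.10.

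Of the other cell types, none of 20 melanocyte genes was past 2-fold, and their median was -0.074. The pigment genes Tyrp1 and Dct stood at 2.69 and 2.72 and at 4.77 and 4.08, against -1.54 and 1.06 at 2 d. The median level of the list was 0.22 at 4 d and 0.41 at 6 d, against -0.81 at 2 d. Skeletal muscle genes had a median of -0.050, Schwann cell genes 0.38, endothelial genes 0.032 and fibroblast genes 0.15. Of the 17 endothelial genes, 1 was at least 2-fold higher and 1 lower by as much. Lyve1, a marker of lymphatic vessels and of some macrophages, stood at 0.79 and 2.46, and Cldn5, a tight junction gene, at 1.88 and 0.83. Ribosomal protein genes were lower by a little: 80 of 82 were below 0, with a median of -0.29 and none past 2-fold, and the median was -0.11 with the level trend removed and -0.092 with quantile normalization. The immediate early median was -0.027, and the clock median 0.14 with Per2 at -3.74 and -2.34.

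Single genes outside these lists stood apart as well. Itgb1bp3, now named Nmrk2, a nicotinamide riboside kinase of muscle, was 31.5-fold higher at 6 d, at -2.31 and 2.66. The 4 d and 10 d arrays were low for it, the latter at -2.37, and the shaved and 50 d arrays high, at 3.34 and 3.74. The transcription factor gene Mecom was 9.55-fold higher, although its 3 probes ran from 0.84 to 3.25. The olfactory receptor gene Olfr1134 and the NK receptor gene Klre1 were 9.89-fold and 9.53-fold higher. Klre1 stood at -5.21 at 4 d, near the lowest level well above background there, -5.54. Ppp1r14d was at least 18.0-fold higher. Among lower genes, Cyp2g1, a cytochrome P450, stood at 2.99 and -0.60, a 12.0-fold difference, and at -3.46 at 10 d. Serpina3j was 12.7-fold lower, Rnf183 22.4-fold, the GTPase regulator Rasal1 10.9-fold and Tnn, which encodes tenascin-W, 10.0-fold. Rnf183 stood at -0.59 at 4 d and at -4.98 or below on every other array. Its -5.08 at 6 d lay near the lowest level well above background there, -5.78.

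Some of the lower genes had a single high array, as did some of the higher ones. Rasal1 stood at -0.36 at 4 d and between -3.81 and -3.05 on the other 7 arrays, and Trim75 at -1.25 against -5.12 to -4.64. Slc30a10, a manganese transporter, was at least 26.8-fold lower and was well above background on the 4 d array alone, as were Gm8298, now Aadacl2fm3, at least 17.4-fold lower, and Olfr142, at least 14.7-fold. In all, 110 of the 794 lower genes were well above background only at 4 d, and 183 of the 1530 higher genes only at 6 d. These rest on 1 array each, the array through which they passed the background filter. Lrrc55 and Kcnj14 were lower by 3.85 and 3.28 with 1 probe, and their second probes gave 0.34 and 0.30.

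The other times place the comparison. Of the 794 lower genes, 573 had their highest level of all 8 arrays at 4 d, which 15.1% of all genes did, and of the 1530 higher genes 501 had it at 6 d, which 5.42% did. Counts of this kind use the 4 d and 6 d arrays themselves, so the choice of genes raises them. The 10 d minus 2 d difference shares no array with 6 d minus 4 d. It was above 0 for 1283 of the higher genes, or 83.9%, against 51.7% of all genes, with a median of 0.74. It was below 0 for 508 of the lower genes, or 64.0%, against 48.3% of all genes, with a median of -0.38. By list, the 10 d level was above the 2 d level for 53 of 53 keratin-associated genes, 15 of 15 hair shaft keratins, 19 of 20 interferon-stimulated and 16 of 18 macrophage genes. It was below it for 21 of 25 interfollicular keratinocyte, 13 of 15 sebocyte, 19 of 22 cholesterol synthesis and 13 of 16 bulge and germ genes. The same held for 10 of 14 desmosome, 11 of 15 Notch and 20 of 20 mature adipocyte genes. Some other lists with medians below 0 at 6 d against 4 d were mixed or went the other way. In these the 10 d level was above the 2 d level for 24 of 26 G2 and M genes and 16 of 29 DNA replication genes. It was also above for 12 of 20 matrix transcription factors, 10 of 18 dermal papilla genes and 6 of 13 hedgehog genes. Per the file headers, the slope of the spike-in controls on the 10 d array, 0.891, was out of range.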

How the data were processed

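RNA of each of the 8 samples carried Cy3 and went on an Agilent one-colour array, 1 array a sample. Per the file headers, the deposited intensity values are processed signals from Feature Extraction 10.5.1.1, background-subtracted and detrended, with surrogates for dim spots, and probe positions are on mm9. Control spots and flagged outliers were left out. Repeated spots were averaged by probe, which left 55668 probes and 34790 gene names, and a gene took the values of its probe with the highest mean. Values are log2 signals minus the array's 75th percentile. No test was possible, and the number of arrays limits the precision. A gene was counted as apart when at least 2-fold different and well above background on the brighter array. In simulated data with noise between repeated spots only, these steps returned the differences put into genes well above background on both arrays. Spread between mice and differences of dim genes were not simulated, so this checks the calculation and not the calls above.

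The comparison, the 50 gene lists and the rule for named genes were chosen with earlier results of these data known. The rule took the 14 highest and 14 lowest genes measured on both arrays with a proper symbol, at most 5 of a keratin family, the 4 largest bounds in each direction, up to 8 members of each list with the largest differences, every hair keratin, sheath, matrix and signalling gene above background, and Adipoq, Plin1, Fabp4 and Cfd. Krtap13, Krtap5-5, Krtap16-4, Krtap10-10, Cnfn, Ccnb2, Cxcl10, Tyrp1, Scd1, Fabp5 and Plin2 lie outside it and were picked with their values in view. Some members of the lists are not reported here by name. Symbols come from the array design. Of the probes, 27229 matched the RefSeq table of GRCm38.p6 by accession, which gave current symbols and promoters only. Alternatives were quantile normalization, median centring, normexp (limma 3.58.1, R 4.3.3), other background filters, other probe choices, bounds, other folds and list means. Removal of the level trend (lowess, statsmodels 0.14.6) and a filter on genes well above background on at least 2 arrays were added after seeing the data. Other steps ran in Python 3.11.15, numpy 2.4.6 and pandas 2.3.3.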

Additional observations from a re-analysis of the deposited data

How the results depend on the processing

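No paired analysis was possible because each time has 1 array, and for the same reason no replicate could be left out. The spread between mice is unknown. With normexp background correction the counts were 493 higher and 465 lower, of which 480 and 458 were among those called without it. With normexp the medians were 2.44 for hair shaft keratins, 3.37, 2.94 and 4.61 for high-sulfur, ultra-high-sulfur and high-glycine-tyrosine keratin-associated genes, and 111 of 474 named genes moved by more than 0.18. Stfa2l1, at 1.03 otherwise, turned to -0.061. Requiring both arrays well above background left 935 higher genes. A 1.5-fold threshold gave 3795 and 2230 genes and a 4-fold threshold 386 and 185. The mean over members was 2.31 for hair shaft keratins, 0.51 for the inner root sheath, 2.90 for ultra-high-sulfur and 5.08 for high-glycine-tyrosine genes, and -0.79 for hedgehog genes, whose median was -0.29 with probes averaged. The causes were not tested. Under all 11 list alternatives the medians ran from -0.90 to -0.80 for G2 and M genes, -0.82 to -0.73 for DNA replication, 1.51 to 1.69 for interferon-stimulated and 0.86 to 0.95 for macrophage genes. Medians near 0 turned sign under at least 1 alternative for the inner root sheath, neutrophil, skeletal muscle, endothelial, BMP, T and NK cell, mature adipocyte, lipolysis, glycolysis, erythrocyte and inflammatory lists.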

Other observations

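Some genes outside the lists also differed, and those given here were chosen after their values were seen. Krt79, a keratin of the follicle opening and the sebaceous duct, stood at 6.28 at 4 d and 3.20 at 6 d, an 8.48-fold difference, and at 0.72 at 10 d. Krt5, the type II keratin of basal cells, stood at 6.49 and 5.03, its partner Krt14 at 3.39 and 2.16, and Col17a1, a collagen of the basal cell anchoring complex, at 0.56 and -0.68. Cst6, a protease inhibitor of the epidermis and follicle, stood at 4.94 and 3.24, and Epcam, an epithelial adhesion molecule, at 0.59 and -0.76. Gprc5d, a receptor of hair-forming cells, was higher at 6 d, at 0.17 and 3.32, and stood at 3.10 at 10 d.

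Rnf213, a ubiquitin ligase that interferon induces, stood at 1.75 and 3.38. Clec3b, which encodes tetranectin, stood at 1.36 at 4 d and 3.83 at 6 d, and between 0.92 and 2.44 on the other 6 arrays. Adm, which encodes the vascular peptide adrenomedullin, stood at 0.89 and 2.68.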
